A study of Mus musculus with 5 samples.

Results

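The colony-stimulating factor axis was examined in microglia, the resident macrophages of the brain, with and without the ubiquitin-editing enzyme A20. The members were taken by symbol, and no measured value entered that rule, although the family was picked with earlier results of these data known. They are the ligands Csf1 and Il34 and the receptor chains Csf1r, Csf2ra, Csf2rb, Csf2rb2 and Csf3r, 7 of the 41388 genes counted. CSF1 and IL-34 both bind CSF1R, a receptor tyrosine kinase on which microglia depend for their survival. GM-CSF binds the alpha chain encoded by Csf2ra, which signals through the common beta chain encoded by Csf2rb, a chain also used by the receptors of IL-3 and IL-5. The mouse carries a further beta chain gene, Csf2rb2, whose product serves the IL-3 receptor. Csf3r encodes the receptor of G-CSF, best known from neutrophils.

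All mice were on a C57Bl/6 background, aged 4 weeks, and had been given 2 mg of tamoxifen on postnatal days 14 and 16. Papain-digested brains were sorted for eYFP, a fluorescent reporter. The 2 control libraries are labelled eYFP-A20fl/wt Cx3cr1-CreERT2/+ and partially deficient, that is, with 1 floxed and 1 wild-type A20 allele and an inducible Cre in 1 copy of the Cx3cr1 locus. The 3 A20 deletion libraries are labelled eYFP-A20Dmg and described as fully deficient, and that label names no Cre driver. Cx3cr1 is also active in other macrophages and in monocytes, so the Cre is not limited to microglia by its locus. Below, C1 and C2 are control replicates 1 and 2, and D1, D2 and D3 are A20 deletion replicates 1, 2 and 3. Nothing in the labels ties each library to a mouse of its own. The p-values therefore measure only the spread between these libraries, part of which may be technical.

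The libraries held 9726334 to 15275199 counts and 15653 to 17501 detected genes. Mitochondrial transcripts took 0.847% to 1.19% of counts in C1, C2 and D1, but 4.63% and 3.56% in D2 and D3. Xist had 780 counts in C1 and 616 in D1, and 0 in the other libraries. Tnfaip3, which encodes A20, was at 454 CPM in C1, 94.7 CPM in C2 and 277 to 348 CPM in D1 to D3, where CPM are read counts scaled to the TMM-adjusted library total. The deleted exons are not named in the labels, so this level is no check of the deletion. Microglial markers summed to 46006 CPM in C1, 50181 CPM in C2 and 33460 to 38612 CPM in D1 to D3. All 10 of them were detected, 1 of them was lower (Fcrls) and 0 higher.

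Because Csf2rb and Csf2rb2 are near-identical copies on chromosome 15, their coding sequences are shown first, as they bear on how far their counts can be told apart. Csf2rb (ENSMUSG00000071713) lies at chr15:78325752-78353847 on the plus strand and Csf2rb2 (ENSMUSG00000071714) at chr15:78282507-78305721 on the minus strand, both in GRCm38. Over 2631 aligned coding bases the copies were 95.2% identical, with 126 mismatches. Of the 50-base windows in the coding sequence, 26.3% of those of Csf2rb and 26.5% of those of Csf2rb2 occurred unchanged in the transcript of the other gene. A stretch of 150 bases in exon 14 was the same in both, at chr15:78348577-78348726 in Csf2rb and chr15:78284722-78284871 in Csf2rb2. A read that falls within it cannot be given to either copy by its sequence. It reads, 5′ to 3′ on the coding strand:
Csf2rb and Csf2rb2, coding bases 2083 to 2232: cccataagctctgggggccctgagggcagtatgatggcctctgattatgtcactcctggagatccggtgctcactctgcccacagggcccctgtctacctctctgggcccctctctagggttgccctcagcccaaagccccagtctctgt

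The 150 aligned coding bases that differed most lie in exons 4 and 5 and held 25 mismatches, against a median of 5 over all such windows. They span chr15:78338889-78340492 in Csf2rb and chr15:78292817-78294442 in Csf2rb2, including the intron between the exons, which is not shown. Capitals mark the bases that differ between the copies:
Csf2rb, coding bases 300 to 449: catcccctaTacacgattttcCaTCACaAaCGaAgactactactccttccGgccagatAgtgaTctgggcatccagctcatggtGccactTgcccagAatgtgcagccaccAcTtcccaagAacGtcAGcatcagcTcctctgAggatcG
Csf2rb2, coding bases 303 to 452: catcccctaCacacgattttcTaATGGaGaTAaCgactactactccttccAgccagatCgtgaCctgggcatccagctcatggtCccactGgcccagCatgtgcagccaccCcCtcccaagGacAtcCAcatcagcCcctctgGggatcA

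The upstream sequences of Csf1 and Csf2ra are shown because these 2 members had the largest differences between the groups. RefSeq's table of gene starts was used for 4 of the 7 members, Csf1, Csf2ra, Csf2rb2 and Csf3r. Csf1r was left out of this search, and no upstream sequence was at hand for Csf2rb and Il34. The 250 bases before each start were searched on both strands for the NF-kB consensus, for TTCNNNGAA (the GAS element that STAT factors recognise), for TGANTCA (AP-1) and for GAGGAA (a core that the myeloid factor PU.1 recognises). Of 32851 upstream windows of that length in the table, 3.9% held the NF-kB consensus, 7.02% the GAS element, 6.75% the AP-1 motif and 23.3% the PU.1 core. Csf1 held the NF-kB consensus as GGAAAGTCCC, 154 to 145 bases before the start. Csf2ra held 2 PU.1 cores next to each other, from 14 to 3 bases before the start. Csf3r and Csf2rb2 held 1 PU.1 core each, and Csf2rb2 also a GAS element 15 to 7 bases before its start. These starts are RefSeq's. For Csf2ra and Csf3r the window runs into the gene span given below, from another annotation. The PU.1 cores of these genes lie wholly or partly inside that span. These matches are descriptions of letters and show no binding. Capitals mark the matches, read 5′ to 3′ towards the start, on the minus strand of chr3:107760470-107760719 (Csf1) and chr19:61228419-61228668 (Csf2ra), GRCm38.p6:
Csf1: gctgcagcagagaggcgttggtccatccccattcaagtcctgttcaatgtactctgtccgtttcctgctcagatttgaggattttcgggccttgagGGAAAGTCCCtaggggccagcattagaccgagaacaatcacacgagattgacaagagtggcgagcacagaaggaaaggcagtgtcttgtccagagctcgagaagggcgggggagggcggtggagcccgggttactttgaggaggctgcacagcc
Csf2ra: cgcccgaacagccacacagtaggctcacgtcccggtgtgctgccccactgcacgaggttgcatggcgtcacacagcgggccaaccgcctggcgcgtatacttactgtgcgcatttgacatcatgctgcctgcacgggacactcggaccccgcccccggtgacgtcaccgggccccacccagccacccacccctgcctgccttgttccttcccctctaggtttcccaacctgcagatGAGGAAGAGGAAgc

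The comparison asks how the transcripts of this axis differ between microglia with partial and with full loss of A20. Of the 7 members 6 passed the filter on low counts and Il34 did not. By edgeR's quasi-likelihood test 0 of the 6 passed an adjusted p of 0.05, where 2.59% of all 12240 tested genes did (2.08% higher and 0.507% lower in the A20 deletion libraries). At an unadjusted p under 0.05 there were 6 of the 6, and 2575 of all tested genes. In each of the 6 the A20 deletion libraries did not overlap the controls: 5 members lay above both controls and Csf1r lay below them. Among all tested genes 40.2% did not overlap, 21.8% with the A20 deletion libraries above and 18.5% with them below. The median log2 fold change of the 6 was 0.61, against 0.05 over all tested genes. The members are few and were not drawn at random, so these shares describe them and give no test of the family.

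**Figure D1:**
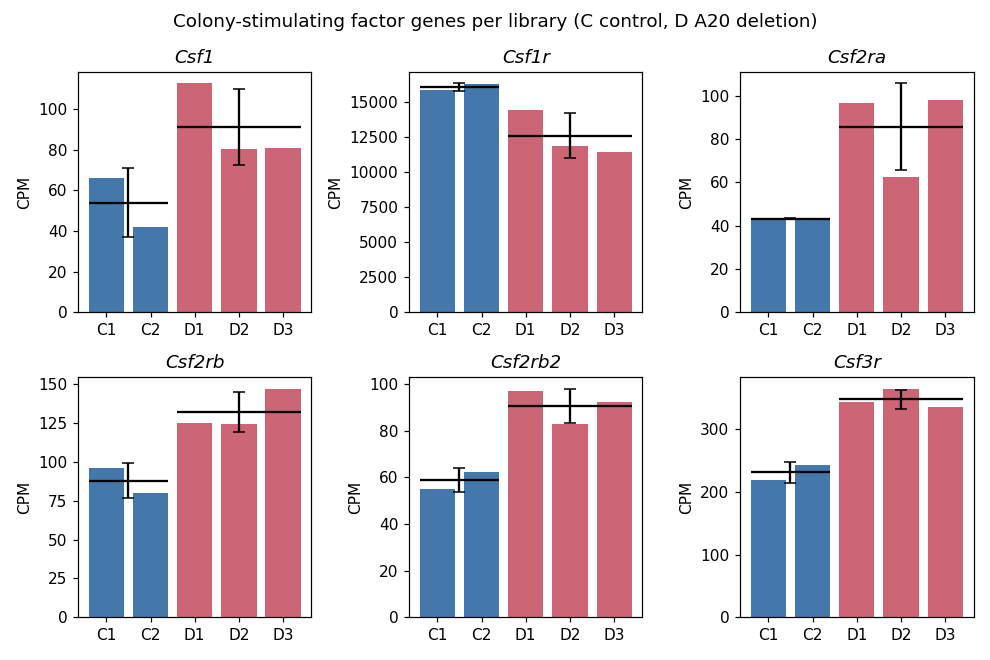
CPM of the 6 tested members in each library (C1 and C2 control, blue; D1 to D3 A20 deletion, red), with the group mean as a line and the SD between libraries as a bar. Csf1r is lower in D1 to D3 (11425 to 14417 CPM) than in C1 and C2 (15849 and 16225 CPM), and the other 5 members are higher in D1 to D3 than in both controls.

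Of the ligands, Csf1 (ENSMUSG00000014599, chr3:107741048-107760469, minus strand) was detected in every library. It was at 66.0 CPM in C1 and 41.9 CPM in C2, and at 113, 80.2 and 80.8 CPM in D1, D2 and D3. The groups did not overlap, but C1 lay closer to D2 and D3 than to the other control. Group means of 53.95 ± 17.1 (SD, n = 2) and 91.2 ± 18.6 CPM (SD, n = 3) gave a log2 fold change of 0.76 (SE 0.26, 95% interval 0.14 to 1.37, edgeR adjusted p = 0.18). The log2 fold change was 1.08 without C1 and 0.42 without C2. Each of these fits compares 1 control with 3 libraries and takes the lone control to vary like the other group. Of all genes tested, 18 passed without C1 and 0 without C2, so a call lost there says nothing about a single gene. C2, where Csf1 was lowest, also stood apart in 3 immediate-early genes, a class that cells switch on within minutes of a stimulus. Fos was at 1240 CPM in C2 and 4332 to 4671 CPM in the other libraries, Jun at 1182 against 1872 to 4155 CPM and Egr1 at 477 against 1558 to 3266 CPM. Egr2, also of this class, did not set C2 apart from C1, at 51.1 CPM in C1 and 46.6 CPM in C2. These genes were chosen after their values were seen, and their part in the Csf1 difference was not tested. Within each group Csf1 was also highest in the library with Xist counts, C1 and D1.

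Il34 (ENSMUSG00000031750, chr8:110741829-110805924, minus strand), the ligand made mainly by neurons in the brain, was close to undetected in these sorted cells. It had 0 counts in C1, 1 in C2, and 0, 1 and 2 in D1, D2 and D3. Pooled and divided by the raw library totals, without the TMM adjustment, that is 0.0342 unadjusted CPM in the controls (exact Poisson 95% interval 0.000866 to 0.191) and 0.0869 in the A20 deletion libraries (0.0179 to 0.254). These intervals cover counting error only. A count of 3 corresponds to 0.196 to 0.308 unadjusted CPM in a single library, so a difference in Il34 was not detectable at this depth. Neuronal markers, 7 of 7 with at least 1 count, summed to 2.63 to 5.69 CPM in C1 and C2 and to 7.19 to 11.0 CPM in D1 to D3. Their part in the few Il34 counts was not tested.

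Csf1r (ENSMUSG00000024621, chr18:61100598-61132149, plus strand) was among the most abundant transcripts of these cells, as the third of 12240 tested genes by mean CPM, and it took 1.15% to 1.66% of all counts of a library. It was at 15849 CPM in C1 and 16225 CPM in C2, and at 14417, 11869 and 11425 CPM in D1, D2 and D3. All 3 A20 deletion libraries lay below both controls, with D1 nearest to them. Group means of 16037 ± 265 (SD, n = 2) and 12570 ± 1614 CPM (SD, n = 3) gave a log2 fold change of -0.35 (SE 0.14, 95% interval -0.67 to -0.03, edgeR adjusted p = 0.21). The microglial marker sum given above was lower in the same 3 libraries. Markers of oligodendrocytes and astrocytes were higher in some or all of them. Oligodendrocyte markers, 6 of 6 detected, summed to 192 and 215 CPM in C1 and C2 and to 253, 345 and 342 CPM in D1, D2 and D3. Astrocyte markers, 6 of 6 detected, summed to 134 and 182 CPM in the controls and to 166, 297 and 300 CPM in D1, D2 and D3, with D1 between the controls. Among the tested genes of both lists 1 passed, Aldh1l1, a folate enzyme typical of astrocytes, higher in the A20 deletion libraries (edgeR adjusted p = 0.0343). It was at 1.64 and 2.31 CPM in C1 and C2 and at 8.06 CPM in D1. Of the other astrocyte markers in D1, Aqp4, Gja1 and Aldoc lay below both controls, Slc1a3 between them and Gfap above both. Endothelial and pericyte markers summed to 53.4 and 60.4 CPM in C1 and C2 and to 62.4, 47.2 and 43.7 CPM in D1, D2 and D3. Pecam1, the highest of them, was at 50.6 and 53.1 CPM in C1 and C2 and at 26.3, 35.2 and 28.0 CPM in D1, D2 and D3. Cldn5, Flt1 and Cdh5 lay above both controls in D1, D2 and D3. Cldn5 was at 0.142 and 1.92 CPM in C1 and C2 and at 19.8, 2.67 and 7.44 CPM in D1, D2 and D3. Pdgfrb and Kcnj8 lay above both controls in only some of these libraries. These genes were named after their values were seen. The part of these cells in the Csf1r difference was not tested. In such bulk samples fewer cells of a type and less RNA per cell cannot be told apart. Csf1r shares 873 exonic bases with Hmgxb3 on the opposite strand. Hmgxb3 had 1982 counts over all 5 libraries, and Csf1r had 112164 to 252924 in each. These counts do not show how reads in the shared bases were assigned, since strandedness was not given.

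With Csf1 above and Csf1r below the controls, the ratio of ligand to receptor transcripts differed more than either gene. Per 1000 Csf1r counts there were 4.17 Csf1 counts in C1 and 2.58 in C2, and 7.81, 6.76 and 7.07 in D1, D2 and D3. The A20 deletion libraries were close to each other (7.21 ± 0.543, SD, n = 3) and the controls were not (3.37 ± 1.12, SD, n = 2). This ratio is read within a library and does not depend on how libraries are scaled. It was formed after the values of both genes were seen and is given with no test.

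**Figure D2:**
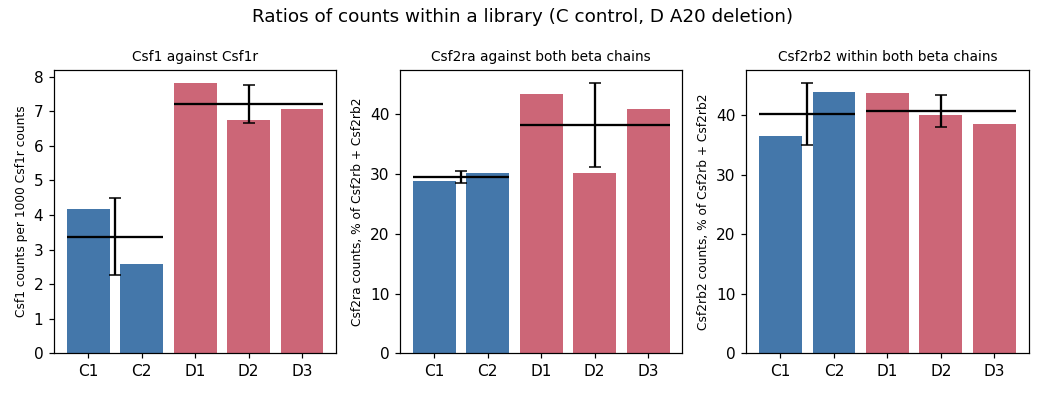
Ratios of counts within each library (C1 and C2 control, blue; D1 to D3 A20 deletion, red), with group means as lines and SD as bars. Csf1 counts per 1000 Csf1r counts lie between 6.76 and 7.81 in D1 to D3 and at 4.17 and 2.58 in C1 and C2, while the Csf2rb2 share of both beta chains overlaps between the groups.

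Of the GM-CSF receptor chains, Csf2ra (ENSMUSG00000059326, chr19:61223957-61228429, minus strand) had the largest difference of the family. It was at 43.5 CPM in C1 and 43.0 CPM in C2, and at 96.5, 62.4 and 97.9 CPM in D1, D2 and D3. The controls were nearly the same, and D2 lay between them and the other 2 libraries. Group means of 43.3 ± 0.393 (SD, n = 2) and 85.6 ± 20.1 CPM (SD, n = 3) gave a log2 fold change of 0.98 (SE 0.23, 95% interval 0.43 to 1.54, edgeR adjusted p = 0.0868).

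The common beta chain gene Csf2rb was at 95.7 CPM in C1 and 79.8 CPM in C2, and at 125, 124 and 147 CPM in D1, D2 and D3, with no overlap. Its log2 fold change was 0.59 (SE 0.17, 95% interval 0.18 to 1.0, n = 2 and 3, edgeR adjusted p = 0.141). Csf2rb2 was at 55.2 CPM in C1, 62.4 CPM in C2 and 97.1, 82.6 and 92.2 CPM in D1, D2 and D3, again with no overlap and with a log2 fold change of 0.62 (SE 0.17, 95% interval 0.23 to 1.02, edgeR adjusted p = 0.113). Reads from stretches identical in both copies cannot be assigned by sequence, so both were also summed into 1 feature before the fit. The sum does not recover reads that fit both copies if the counting left them out, and that handling was not given. The sum was at 151 CPM in C1, 142 CPM in C2 and 222, 207 and 239 CPM in D1, D2 and D3. Its log2 fold change was 0.60 (SE 0.16, 95% interval 0.24 to 0.97, edgeR adjusted p = 0.105), so the size of the difference was close to that of each copy. Csf2rb2 held 36.6% of the counts of both copies in C1, 43.9% in C2 and 43.7%, 40.0% and 38.5% in D1, D2 and D3, so the groups overlapped.

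Csf2ra counts were 28.8% of the summed beta chain counts in C1, 30.2% in C2 and 43.4%, 30.2% and 40.9% in D1, D2 and D3. Relative to the beta chains the alpha chain was thus above both controls in D1 and D3 and within their range in D2.

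Csf3r (ENSMUSG00000028859, chr4:126024550-126044440, plus strand) was the next most abundant receptor after Csf1r. It was at 219 CPM in C1 and 243 CPM in C2, and at 343, 365 and 336 CPM in D1, D2 and D3. The libraries of each group lay close together, with no overlap between groups. Group means of 231 ± 16.5 (SD, n = 2) and 348 ± 15.04 CPM (SD, n = 3) gave a log2 fold change of 0.59 (SE 0.15, 95% interval 0.23 to 0.95, edgeR adjusted p = 0.105). The sum of the neutrophil markers was 22.9 CPM in C1, 0.449 CPM in C2 and 11.5, 1.49 and 3.67 CPM in D1, D2 and D3, with overlap between the groups. All 10 of these markers had at least 1 count somewhere, and S100a9, the highest of them, averaged 2.18 CPM. Cxcr2, a chemokine receptor of neutrophils, was at 0.498 CPM in C1, 0.0641 CPM in C2 and 0.26, 0.943 and 2.24 CPM in D1, D2 and D3. No other marker of this list lay above both controls in D2 or D3. Ngp was at 5.41 CPM in C1, 0.0641 CPM in C2, 2.25 CPM in D1 and 0 in D2 and D3. Ltf was at 3.77 CPM in C1, 0 in C2, 2.08 CPM in D1 and 0 in D2 and D3. Cxcr2, Ngp and Ltf were chosen after their values were seen. The part of neutrophils in the Csf3r difference was not tested.

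**Figure D3:**
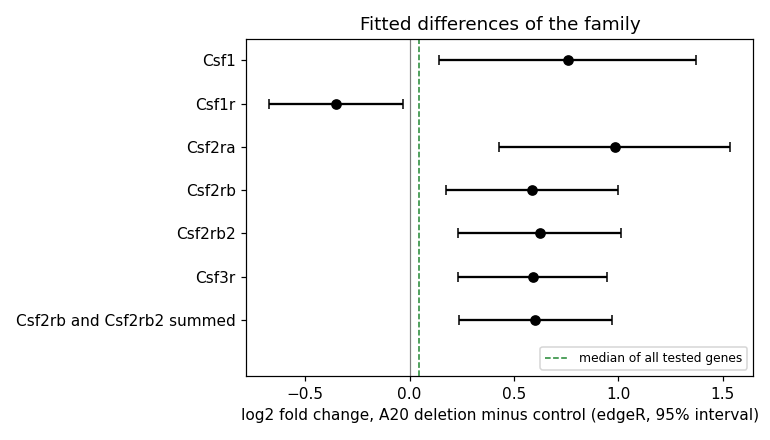
Fitted log2 fold changes (A20 deletion minus control, edgeR) of the 6 tested members and of both beta chain copies summed, with 95% intervals for a single gene; the dashed line is the median of all tested genes (0.05). Csf1r lies below 0 at -0.35, and the others lie between 0.59 and 0.98, each with an interval that leaves out 0.

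Markers of other myeloid cells that carry these receptors were also read. Border-associated macrophages, which Cx3cr1 also marks, had the highest sum of these lists, at 61.0 CPM in C1, 133 CPM in C2 and 107, 86.1 and 98.9 CPM in D1, D2 and D3, all within the range of the controls. All 7 of their markers were tested and 0 passed. Mrc1, a mannose receptor and the highest of them, was at 42.3 CPM in C1, 85.4 CPM in C2 and 51.6 to 63.8 CPM in D1 to D3. Monocyte markers summed to 19.1 CPM in C1, 15.8 CPM in C2 and 65.7, 47.0 and 39.4 CPM in D1, D2 and D3, higher in the same libraries as Csf2ra, Csf2rb, Csf2rb2 and Csf3r. Within that list Plac8 rose from 2.81 ± 0.253 to 24.8 ± 7.28 CPM (SD, n = 2 and 3, edgeR adjusted p = 0.00792). Of the defining monocyte genes, Ccr2 was at 11.5 CPM in C1, 8.21 CPM in C2 and 5.19 to 8.14 CPM in D1 to D3, below both controls, and Ly6c2 had 1 count in both controls together and 7 to 12 counts in each of D1 to D3. Dendritic cell markers summed to 6.62 CPM in C1, 7.18 CPM in C2 and 12.04 to 14.86 CPM in D1 to D3, with Cd209a at 0 in every library. Ccr2, Ly6c2 and Cd209a were chosen after their values were seen. The part of these cells in the receptor values was not tested.

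Levels between the genes were compared only per length, as CPM per kilobase of annotated exons, averaged over the 5 libraries. Csf1r stood at 2417 and ranked 15 of 12194 tested genes with a length. Csf3r followed at 83.4, with 60.8 to 101 over the libraries, apart from both its neighbours in every library. Csf2ra (23.9), Csf2rb2 (16.4), Csf2rb (15.7) and Csf1 (14.4) followed, and their ranges over the libraries overlapped. Their order depended on the length used. Per kilobase of the longest protein-coding transcript it was Csf2ra (37.1), Csf2rb (23.3), Csf1 (18.3) and Csf2rb2 (16.4). Il34 came last on either scale, at 0.0354 and 0.0386.

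Other processing placed some members past the threshold. DESeq2 called Csf3r, Csf2rb2 and Csf2ra higher (adjusted p = 0.0055, 0.0224 and 0.00782), 3 of 6, where it called 6.08% of all genes higher. Limma-voom called 0. Without a filter on low counts, Csf1 and Csf2ra were called higher (5.06% of all genes), and with a term for libraries with Xist the same 2 were (4.6%). Csf2ra alone was called higher with a term for the mitochondrial share (2.77% of all genes), without D2 (1.35%) and with D2 and D3 both omitted (2.64%). The last of these compares D1 alone with the controls, so its spread comes from the 2 controls only and it describes that library rather than a group. Without D1, Csf2ra, Csf2rb, Csf2rb2 and Csf3r were called higher and Csf1r lower (adjusted p = 0.00827, log2 fold change -0.49). In that fit 15.7% of all genes were called higher and 16.7% lower, and the groups coincide with the mitochondrial shares, so that the genotype and this structure cannot be told apart. Csf2ra passed under 7 of the 18 alternatives, the one with D1 alone included, and no other tested member under more than 2. Over these alternatives adjusted p ranged from 0.0011 to 0.466 for Csf2ra, 0.0055 to 0.501 for Csf3r, 0.0193 to 0.524 for Csf2rb2 and 0.0202 to 0.541 for Csf2rb. The range was 0.0162 to 0.578 for Csf1 and 0.00827 to 0.666 for Csf1r.

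**Figure D4:**
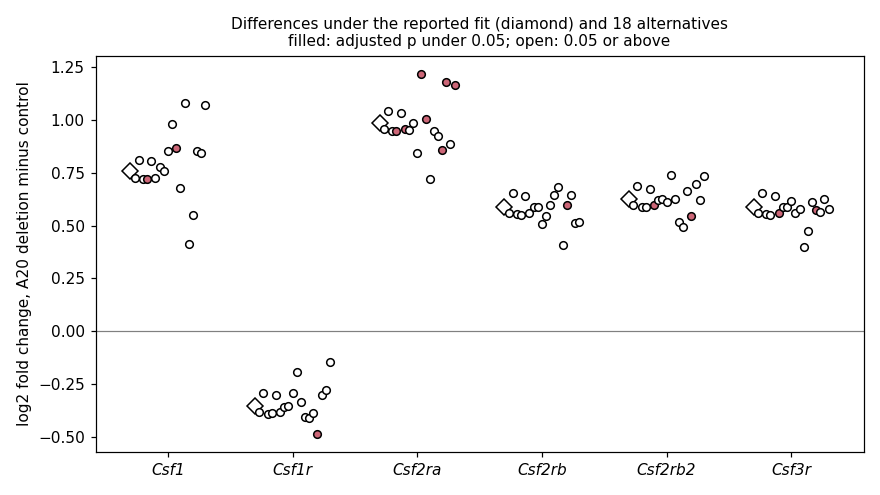
Log2 fold change (A20 deletion minus control) of each tested member under the reported fit (diamond) and 18 alternatives (circles); filled symbols have an adjusted p under 0.05. No value crosses 0, every diamond is open, and Csf2ra has the most filled circles (7).

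Of the family's remaining ligands, Csf2, Csf3, Il3 and Il5 had 0 counts in every library, as had Il5ra, which allows up to 0.308 unadjusted CPM in the shallowest library. Il3ra, the IL-3 receptor alpha chain that pairs with both beta chains, was higher in the A20 deletion libraries. It was at 5.34 CPM in C1, 4.23 CPM in C2 and 15.5, 10.8 and 19.0 CPM in D1, D2 and D3, 3.15-fold higher (log2 fold change 1.66, SE 0.31, edgeR adjusted p = 0.0453). It lay just inside the threshold and did not pass by limma-voom (adjusted p = 0.0766), with DESeq2's size factors (0.0504) or after the length correction (0.0804). Its log2 fold change was 1.46 without D3 (edgeR adjusted p = 0.135), where 90 genes passed in all. With a single control it was 1.79 without C1 (adjusted p = 0.239) and 1.45 without C2 (0.384), fits in which few or no genes of the whole table passed. Ptprz1, a further IL-34 receptor of neural cells, was at 2.43 to 7.74 CPM and did not pass (edgeR adjusted p = 0.467), and Sdc1 had 4 counts in all.

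Around the receptors, 62 of 71 listed genes were tested, and 2 were higher and 0 lower by edgeR, with 18 at an unadjusted p under 0.05. Over all 12240 tested genes 2.08% were higher, 0.507% lower and 2575 at an unadjusted p under 0.05. DESeq2 called 7 higher and 4 lower, where it called 6.08% of all genes higher and 2.99% lower. Their median log2 fold change was 0.00, close to that of all genes, and 14 lay above both controls and 15 below them, where 21.8% and 18.5% of all tested genes did.

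In proximal signalling, all 26 genes were tested and 0 passed in either direction (4 at an unadjusted p under 0.05). Their median log2 fold change was -0.21. The Src-family kinase Fyn had a log2 fold change of -0.60 (edgeR adjusted p = 0.131). Among the brakes on receptor signalling 11 of 12 were tested and 0 passed (4 at an unadjusted p under 0.05), with a median of 0.06. The adaptor Sh2b3, which restrains JAK2 signalling, stood at 247 ± 3.54 and 176 ± 24.6 CPM (SD, n = 2 and 3, edgeR adjusted p = 0.181). Cblb, a ubiquitin ligase, stood at 17.1 ± 1.39 and 11.5 ± 1.63 CPM (SD, n = 2 and 3, edgeR adjusted p = 0.2).

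All 10 transcription factors that act at these receptor genes were tested and 0 passed (2 at an unadjusted p under 0.05). Their median log2 fold change was 0.11. The ETS factor Fli1 had a log2 fold change of -0.54 (edgeR adjusted p = 0.12) and Cebpb, a factor of inflammatory myeloid genes, 1.38 (adjusted p = 0.125). Of genes known to respond to CSF1 or GM-CSF 13 of 15 were tested, 1 was higher and 0 lower, with a median of 0.02. At an unadjusted edgeR p under 0.05 there were 7 of the 13, where 2575 of all 12240 tested genes were. Differences ran both ways: 5 genes lay above both controls and 2 below them, where 21.8% and 18.5% of all tested genes did. The gene that passed was Itgax, the CD11c integrin chain. It was at 43.3 CPM in C1, 35.4 CPM in C2 and 342, 151 and 226 CPM in D1, D2 and D3, 6.08-fold higher (log2 fold change 2.61, SE 0.36, edgeR adjusted p = 0.0174). Its log2 fold change was 2.65 without D3 (edgeR adjusted p = 0.0542). With a single control it was 2.72 without C1 (adjusted p = 0.146, with 18 genes passing in all) and 2.42 without C2 (0.248, with 0 passing), so the size of the difference stayed close to that with all libraries.

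**Figure D5:**
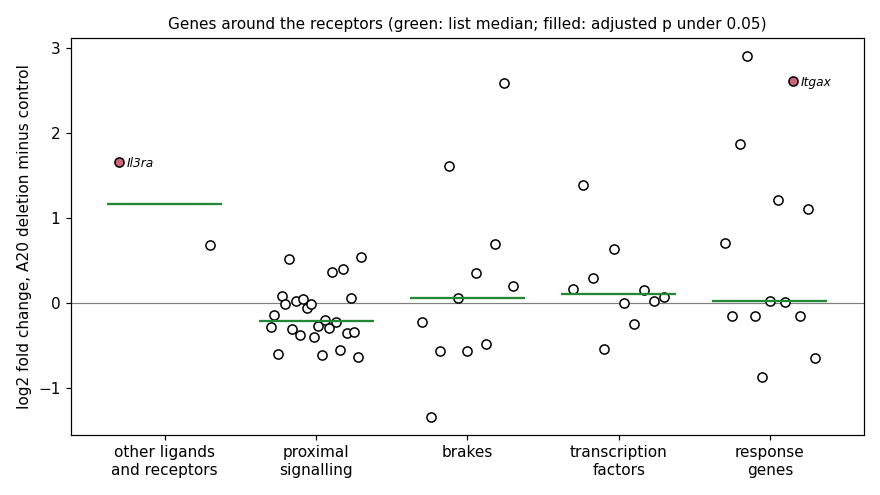
Log2 fold changes (A20 deletion minus control, edgeR) of the 62 tested genes around the receptors, by list; green lines are list medians and filled circles have an adjusted p under 0.05. Il3ra (1.66) and Itgax (2.61) are the 2 filled circles, and the proximal signalling genes lie close to 0 with a median of -0.21.

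The tested genes whose pattern over the 5 libraries was most like each member were found by the root mean square difference of centred log2 CPM, among 8326 genes. For Csf1 they were Pim3 (0.079), Plk3 (0.0807) and Gcc2 (0.0942). Csf1r was closest to Seh1l (0.0182), Pnpla8 (0.0197) and Tollip (0.0211). Csf2ra had more distant neighbours, among them Wscd1 (0.0994) and Tnfaip2 (0.13). Csf2rb was closest to Cenpb (0.0155), Cep63 (0.044) and Galns (0.0524), and Csf2rb2 to Grn (0.0192), Zup1 (0.0379) and Arhgap19 (0.0382). For Csf3r they were Prdx1 (0.0364), Efemp2 (0.0442) and Rtl8c (0.0572). None of the neighbours named here passed the threshold, which their likeness to members that did not pass makes likely. No member was among the 3 nearest genes of another, which does not show whether the members vary together.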

How the data were processed

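RNA-seq of eYFP-sorted microglia was deposited by the authors as a single table of raw counts of reads per Ensembl gene, 41388 genes in 5 libraries. The submitters' processing notes name STAR 2.4.0j, featureCounts, DESeq2 1.22.1 and the build GRCm38. Read length, strandedness, the release of the annotation and the handling of multi-mapping reads were not given in the sources used here, so genes with near-identical copies are uncertain. By Ensembl identifier 40340 genes matched a GENCODE M21 symbol. Sequences upstream of gene starts came from RefSeq (GRCm38.p6).

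Low counts were removed with filterByExpr (at least 10, and 15 in total), libraries were scaled by TMM, and the 2 controls and 3 A20 deletion libraries were compared with edgeR 4.0.16 in R 4.3.3 (quasi-likelihood, two-sided, no covariate), Benjamini-Hochberg adjusted over all 12240 tested genes, threshold 0.05. Intervals (95%) are for a single gene, without that adjustment. The procedure was tested on simulated data. The members and gene lists were chosen with earlier results of these data known. Named genes are all members, list genes past the threshold, the 2 smallest p in lists with none, and the 3 most similar profiles per member. Some genes that this rule names are left out here. Other genes were chosen after their values were seen. Alternatives were other scalings, filters, DESeq2 1.42.0, limma-voom (limma 3.58.1), a robust fit, terms for mitochondrial share and Xist, a length correction, a replicate block and left-out libraries.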

Additional observations from a re-analysis of the deposited data

How the results depend on the processing

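All 108 values of the 6 tested members under 18 alternatives kept their direction, which groups that do not overlap make likely. Members higher numbered 0 in the reported fit and 2 without a filter, 3 with DESeq2, 1 with the mitochondrial term, 2 with the Xist term and 1 with A20 deletion replicates 2 and 3 both omitted. With each library left out in turn there were 0 to 4 higher and 0 to 1 lower. The summed beta chains passed with DESeq2 (log2 fold change 0.57) and ranged from 0.51 to 0.67 with a library left out. Genes past the threshold, 317 in all, were 1701 without a filter, 1110 with DESeq2, 211 with limma-voom, 824 with the Xist term and 0 to 3923 with a library left out. Listed genes higher, 2 in the reported fit, were 1 with DESeq2's size factors, limma-voom or the length correction, 7 without a filter or with DESeq2, and 0 to 10 with a library left out. Listed genes lower, 0 in the reported fit, were 1 with upper quartile scaling, library size or the Xist term, 5 without a filter, 4 with DESeq2 and 0 to 22 with a library left out. Leaving out a control leaves 1, and 18 (without C1) or 0 (without C2) genes then passed. The cause of the other differences was not tested. The median of all genes was 0.05, and -0.12 after the length correction. The labels share replicate numbers but do not say that they pair mice. With the replicate block 260 genes and 0 members passed. In that fit D3, the only library numbered 3, is taken up by its own term and adds nothing to the group difference. Deviations of same-numbered libraries from their group means correlated at 0.26 and 0.17. With 2 controls the deviations of C1 and C2 mirror each other, so these values are not independent and do not decide on pairing. With 2 and 3 libraries, precision is set by their number more than by counts, except for Il34.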
